A study of Arabidopsis thaliana with 21 samples.

Results

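COR27 (AT5G42900, chromosome 5) and COR28 (AT4G33980, chromosome 4) are 2 related Arabidopsis genes, each measured by 1 of the 31329 probe sets analysed. They were found by locus in the platform's table of probe sets and genes, where COR28 is listed under its locus. The pair was selected on its measured values, namely a large increase in the cold and a loss and return of transcript during deacclimation, so its differences are a description and carry no p-value.

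Both genes encode small proteins and are induced in the cold. They link the cold response to the circadian clock: the morning factor CCA1 represses their transcription, and they in turn repress the evening genes PRR5 and TOC1. They also act in freezing tolerance, in flowering time and, through COP1, HY5 and phytochrome B, in the growth response to light.

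Transcript levels were measured on whole-transcript arrays in pooled rosettes of the wild-type accession Col-0. All plants spent 3 weeks in days of 8 h and 1 week in days of 16 h, in day temperatures of 20 °C, night temperatures of 18 °C and at least 200 µmol of light per square metre and second. Cold acclimated (CA) plants were then held at 4 °C and 90 µmol for 3 d. Deacclimated plants were CA plants brought back to 20 °C by day for 2, 4, 6, 12 or 24 h, and non-acclimated (NA) plants were never cold. Each of the 7 groups had 3 independent biological replicates of 10 rosettes. The move out of the cold also raised the light. The study describes a morning transfer and sampling in daylight, which puts the 24 h group near the clock hour of transfer, but the hours at which CA and NA plants were harvested were not found in the labels or the text. The times from 2 h to 12 h are also different times of day, so warming, light and time of day cannot be told apart in these groups.

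Values are log2 expression levels as deposited. Array medians lay between 8.11 and 8.28, apart from 8.43 in replicate 1 at 2 h, and the lowest correlation between arrays of 1 group was 0.984. Of the leaf markers, 3 were measured. RCA, the activase of Rubisco, was not called in the 6 comparisons that involve CA plants, with group means between 12.33 and 12.65. Among the light-harvesting genes, LHCB2.1 was called lower at 12 h than in CA plants, at -1.17, and LHCB1.4 was called higher in CA than in NA plants, at 1.75. Both were named only from the study's own list of called transcripts, unlike RCA, so these calls are not independent evidence of change. Their part in the results was not tested. Root and flower markers were not named by the tables used and were not analysed here.

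COR27 was high in CA plants, near its NA level early in deacclimation (2 h and 4 h), back near its CA level at 6 h and 12 h, and low again at 24 h. Its 3 arrays read 9.81, 9.46 and 9.91 in CA plants. After 2 h they read 5.55, 4.70 and 4.93, and after 4 h 6.10, 5.002 and 5.85. Every array of these early times lay more than 3 log2 units below every CA array. After 6 h the levels were 9.78, 9.12 and 9.42, and after 12 h 10.43, 9.97 and 10.25. The arrays at 6 h overlapped those of CA plants, while those at 12 h all lay above them, by a gap of 0.06. After 24 h the levels were 6.17, 5.29 and 5.52, and NA plants had 5.24, 4.64 and 5.46. Thus the 24 h arrays overlapped the NA arrays.

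COR28 followed the same sequence with an earlier return. It read 9.45, 9.21 and 9.73 in CA plants. After 2 h its levels were 6.93, 6.07 and 4.89, the widest spread of any group for this gene (SD 1.02). After 4 h they were 7.89, 7.75 and 7.87, all above the 2 h arrays and all below the CA arrays. After 6 h COR28 read 10.80, 10.28 and 10.38, and after 12 h 10.74, 10.75 and 10.77. All 6 of these arrays lay above every CA array. After 24 h the levels were 6.30, 5.89 and 5.48, and NA plants had 5.54, 5.01 and 5.84, so that these groups overlapped. In whole rosettes, a lower level in each cell and fewer cells with the transcript cannot be told apart.

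**Figure D1:**
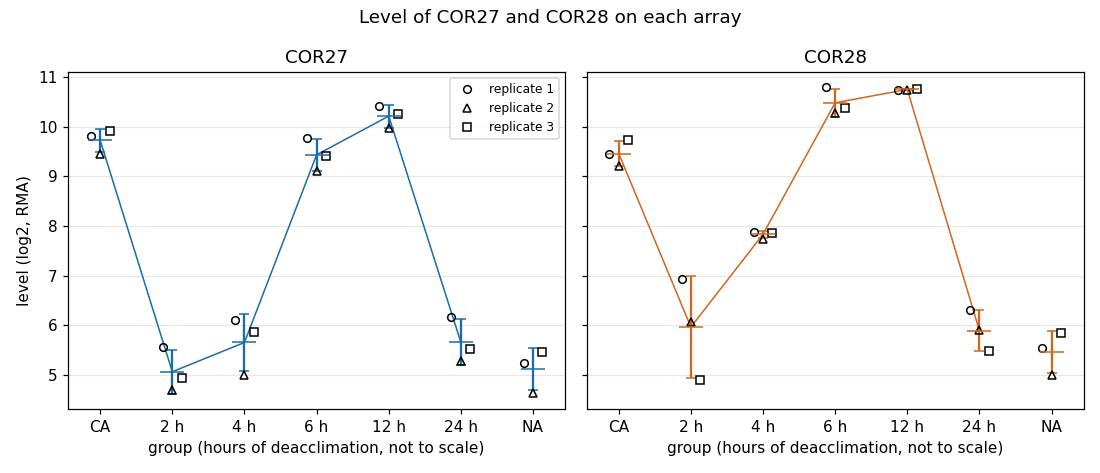
Log2 level of COR27 and COR28 (vertical axis) on each of the 21 arrays, by group in order of time with NA plants at the right. Points are arrays and lines join or mark group means; COR27 arrays at 2 h lie between 4.70 and 5.55, and those at 12 h between 9.97 and 10.43.

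Ordered by group mean, COR27 stood at 10.22 ± 0.23 at 12 h, 9.73 ± 0.24 in CA plants, 9.44 ± 0.33 at 6 h, 5.66 ± 0.46 at 24 h, 5.65 ± 0.58 at 4 h, 5.11 ± 0.43 in NA plants and 5.06 ± 0.44 at 2 h (SD, n = 3 each). The order held without overlap of neighbouring groups between 12 h and CA plants and between 6 h and 24 h, where 2.95 log2 units were empty. The 4 lowest groups overlapped their neighbours and have no firm order.

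For COR28 the order was 10.76 ± 0.016 at 12 h, 10.49 ± 0.28 at 6 h, 9.46 ± 0.26 in CA plants, 7.83 ± 0.075 at 4 h, 5.96 ± 1.02 at 2 h, 5.89 ± 0.41 at 24 h and 5.46 ± 0.42 in NA plants (SD, n = 3 each). Here 6 h, CA, 4 h and 2 h were separated, by gaps of 0.55, 1.33 and 0.82, whereas 12 h overlapped 6 h and the 3 lowest groups overlapped their neighbours. The 4 h group was thus an intermediate level of its own for COR28 and part of the low set for COR27.

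Between its highest and lowest group mean COR27 spanned 5.16 log2 units, rank 28 of 31329 probe sets. COR28 spanned 5.30, rank 23, where the median of all probe sets was 0.60. Both also varied more than most within groups, with pooled SDs of 0.40 for COR27 and 0.47 for COR28 against a median of 0.23.

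Calls of change required a log2 change over 1 and an adjusted p (Benjamini-Hochberg, limma) under 0.05. In CA plants COR27 stood 4.61 ± 0.31 (SE) above NA plants, a 24.5-fold difference, and COR28 4.00 ± 0.36, or 16.0-fold. Both were called higher, as were 3.64% of all probe sets. By size they were the 6th and 8th of 1139 increases.

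After 2 h COR27 differed from CA plants by -4.67 ± 0.31, a level 25.4-fold lower and the 2nd of 502 called decreases. COR28 differed by -3.50 ± 0.36, 11.3-fold lower and the 8th. Both were called lower, beside 1.6% of all probe sets. Replicate 1, the array with the highest median, was also the highest of the 2 h arrays for both genes. Without it the difference was -4.91 for COR27 and -3.98 for COR28, and without replicate 3, the lowest array for COR28, it was -4.60 for COR27 and -2.96 for COR28. Both calls held in these fits.

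At 4 h the genes moved apart. COR27 was still -4.08 ± 0.31 from CA plants, 16.9-fold lower and 7th of 816 decreases, while COR28 was at -1.63 ± 0.36, 3.09-fold lower and 222nd. Both counted among the 2.6% of probe sets called lower.

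At 6 h COR27 differed from CA plants by -0.29 ± 0.31 (SE), with overlapping arrays, and was not called. COR28 was 1.02 ± 0.36 above CA plants and was called higher, beside 4.17% of probe sets. This call sits at the fold threshold, as the 1258th of 1306 increases, and was lost when any 1 of the 6 arrays was left out, with differences of 0.87 to 1.16. At 12 h COR27 was 0.49 ± 0.31 above CA plants and not called, and COR28 1.29 ± 0.36 above and called, beside 4.41% of probe sets called higher.

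At 24 h both were again far below CA plants. COR27 differed by -4.07 ± 0.31, 16.8-fold lower and 9th of 1370 decreases, and COR28 by -3.57 ± 0.36, 11.9-fold lower and 19th. Both were called, beside 4.37% of all probe sets.

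Set against NA plants, COR27 differed by -0.05 at 2 h and COR28 by 0.50, and neither was called, where 4.5% of probe sets were called in either direction. The COR28 value at 2 h rests on replicate 3, without which it was 1.04 and called. At 4 h COR27 was 0.54 above NA plants and not called, whereas COR28 was 2.37 above and called higher with 2.2% of probe sets. At 6 h COR27 was 4.32 and COR28 5.02 above NA plants, both called, beside 3.0% called higher. At 12 h the differences were 5.10 for COR27 and 5.30 for COR28, or 34.4-fold and 39.3-fold. Both were called, beside 1.95%, as the 4th and 3rd of 610 increases. At 24 h COR27 was 0.55 and COR28 0.43 above NA plants and neither was called, where 0.0447% of probe sets were called in either direction.

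As a share of the difference between CA and NA plants, the mean of COR27 was -1.11% (2 h), 11.7% (4 h), 93.7% (6 h), 111% (12 h) and 11.8% (24 h). COR28 stood at 12.5%, 59.3%, 126%, 132% and 10.8% at the same times. The means of both genes lay above their cold level at 12 h, and that of COR28 also at 6 h.

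**Figure D2:**
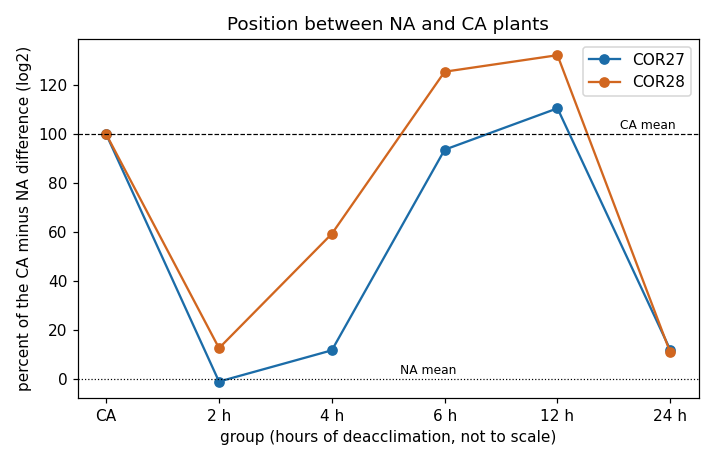
Group mean of each gene at each time, in percent of the log2 difference between NA plants and CA plants, with NA plants at 0. COR28 stands at 59.3% at 4 h where COR27 stands at 11.7%, and at 24 h COR28 stands at 10.8% and COR27 at 11.8%.

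From one time to the next, COR27 at 4 h was 0.59 ± 0.31 above its level at 2 h and not called. COR28 at 4 h was 1.87 ± 0.36 above 2 h and was called higher, beside 0.105% of probe sets. This call was lost without replicate 3 at 2 h, where the value was 1.34, and without any 1 of the 4 h arrays. Between 6 h and 4 h, COR27 was 3.78 ± 0.31 higher at 6 h, 13.8-fold and the largest of 9 called increases, and COR28 2.65 ± 0.36 higher, 6.28-fold and 3rd of the 9. Both were called, beside 0.0287% of all probe sets.

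The step to 12 h was small for both. COR27 at 12 h was 0.78 above 6 h and COR28 0.27 above, and neither was called, where 0.517% of probe sets were called in either direction. At 24 h COR27 was -4.56 ± 0.31 from 12 h, 23.6-fold lower, and COR28 -4.86 ± 0.36, 29.1-fold lower. Both were called lower, beside 1.02% of probe sets, as the 4th and 3rd of 318. Over these 15 comparisons COR27 was called in 8 and COR28 in 12. The COR28 calls for 6 h against CA plants and for 4 h against 2 h were lost in most fits with an array left out. Comparisons that share a group are not independent of each other.

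Levels of different probe sets cannot be set against each other. Their changes within an array were compared instead, but probe sets can differ in response. Whether both respond alike was not tested. Relative to CA plants, the change of COR28 exceeded that of COR27 by 1.17 (2 h), 2.45 (4 h), 1.31 (6 h), 0.80 (12 h) and 0.50 (24 h), each with an SE of 0.32. In NA plants the value was 0.61. The 95% intervals at 24 h (-0.195 to 1.19) and in NA plants (-0.08 to 1.31) reached below the CA mean. At 4 h the arrays read 2.05, 3.01 and 2.28, and at 6 h 1.29, 1.42 and 1.23. The CA arrays read -0.10, 0.02 and 0.08, and every array of the other 6 groups lay above them. At 2 h they read 1.64, 1.63 and 0.23, so that replicate 3 stood apart from the others, and without it the mean was 1.64. The difference between the measured changes was largest at 4 h.

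**Figure D3:**
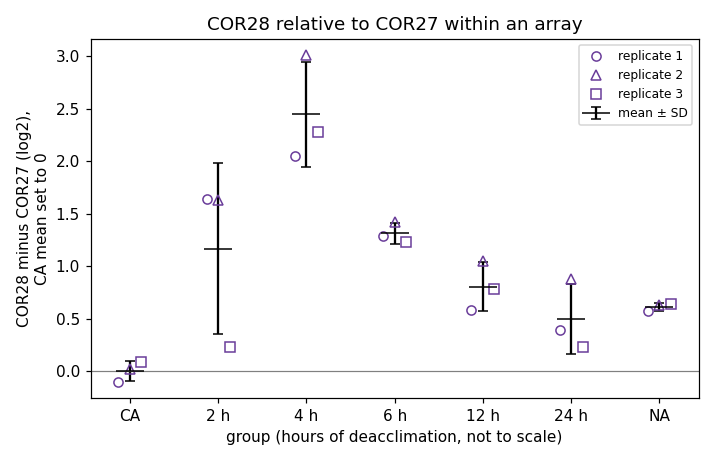
COR28 minus COR27 within each array, in log2 units and centred on the CA mean, by group. Points are arrays; the 4 h arrays, between 2.05 and 3.01, are the highest, and 1 array at 2 h, at 0.23, lies apart from the others of its group.

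Over the 21 arrays the genes correlated at r = 0.935, and over the 7 group means at 0.945. These points share their arrays and the 7 conditions. Deviations from the group means correlated at 0.595 over 21 arrays, and at 0.729 over the 18 arrays without the 2 h group. Replicate 2 was the lowest array for COR27 in 7 of 7 groups and for COR28 in 4 of 7. The methods speak of 3 independent experiments, but whether a replicate number marks the same experiment in all groups was not stated.

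**Figure D4:**
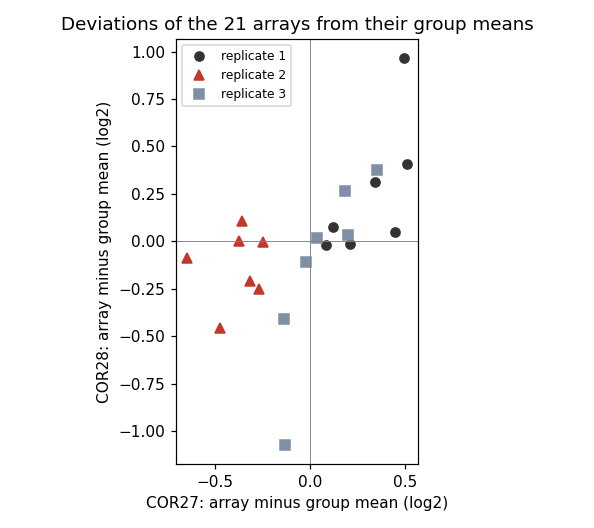
Deviation of each array from its group mean (log2), COR27 on the horizontal and COR28 on the vertical axis, marked by replicate number. All arrays of replicate 2 lie left of 0 for COR27, and the 2 h arrays reach from -1.07 to 0.96 for COR28.

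The pattern of calls in the 6 comparisons that involve CA plants was shared with COR27 by 6 other probe sets, of which 4 carried a name: ASY1, a protein of the meiotic chromosome axis, the purine permease PUP1, AT1G52430 and AT5G47130. COR28 shared its pattern with 0 other probe sets, and with 1 when the 6 h call at the threshold was left out of the pattern. The corresponding number for COR27 was 12.

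Between 6 h and 4 h, the interval in which COR27 had the largest increase, the other named probe sets called higher were AT1G07050, at 3.01, and FKF1, a blue-light receptor that promotes flowering, at 2.38. Of the 9 probe sets called higher, 5 carried no name. The 6 probe sets called lower included CCA1 at -1.67 and LHY at -1.34. Called falls at 2 h and from 12 h to 24 h, with an increase over 1 between 4 h and 6 h, called or not, were found in 12 probe sets. This pattern was chosen after the values of the pair were seen. Of the 12, 6 carried no name. Those named besides the pair were FKF1, AT1G07050, AT1G17665 and DREB2C. The increases of AT1G17665 and DREB2C between 4 h and 6 h were not called.

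Likeness was ranked among the 3394 single-gene probe sets that carried a name and were called in a comparison with CA plants. Probe sets without a name could not appear. The named probe set most like COR28 over the 7 group means was DREB2C, a factor of the family that binds drought- and cold-responsive elements (r = 0.985). Relative to CA plants DREB2C stood at -1.999 (2 h), -0.58 (4 h), 0.99 (6 h), 0.96 (12 h) and -2.69 (24 h), and it was 2.97 higher in CA than in NA plants. Next to it came AT1G76590 (0.975), AT1G53035 (0.964), AT2G40085 (0.963), the carboxypeptidase-like SCPL49 (0.955), AT5G66790 (0.954), AT2G15830 (0.953) and GI (0.950), an evening clock gene. COR27 was the 10th.

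For COR27 the closest were LURP1 (0.950), COR28 (0.945), AT2G40085 (0.935), AT5G66790 (0.926), CLE21, which encodes a small signalling peptide (0.922), IDD16, a zinc finger factor (0.903), AT5G62350 (0.897) and AT3G01960 (0.887). AT2G40085 and AT5G66790 were close to both. LURP1 was named only from the study's list of called transcripts. Of the genes in the COR27 set, COR28 alone spanned more than 2 log2 units: LURP1 spanned 1.48 and AT2G40085 1.42. With only 7 means, many probe sets reach high values, and the ranks changed with the measure of likeness.

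The genes known to act on the clock, in light signalling and in the cold with the pair were listed, and those that a table names were measured. Of 13 direct regulators, partners and targets of the pair, CCA1 and LHY were named, and the other 11, among them RVE8, PRR5, TOC1, HY5 and the CBF genes, were not analysed here. Most clock and light genes were named from the study's own list of transcripts that had been called. Their counts of calls, list medians and adjusted p-values are therefore not independent evidence of change. Further list members named below were mostly picked for the largest called changes, so their adjusted p-values are descriptive.

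Of 28 clock genes 10 were measured, 7 of them named from that list. At 2 h, 1 was higher and 5 were lower than in CA plants, beside 2.88% of all probe sets called higher and 1.6% called lower. At 12 h, 1 was higher and 4 were lower, beside 4.41% called higher and 4.76% called lower. The median difference of the list was -0.82 at 2 h and -0.50 at 12 h, against 0.06 and 0.01 for all probe sets.

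CCA1 was lower than in CA plants at each time up to 12 h. It differed from CA plants by -1.91 (2 h), -3.16 (4 h), -4.83 (6 h) and -5.20 (12 h), with an SE of 0.28 and a limma adjusted p of 3.08e-09 at the last of these, and by 0.03 (24 h). LHY, its close relative, stood at -1.80, -4.48, -5.82 and -5.21 at these times (SE 0.20, adjusted p 1.14e-10 at 12 h) and at 0.45 at 24 h. In CA plants neither was called against NA plants, with differences of 0.06 for CCA1 and -0.46 for LHY. At 2 h and 4 h the pair, CCA1 and LHY were all called lower than in CA plants. At 6 h and 12 h CCA1 and LHY were called lower, COR27 was not called and COR28 was called higher. The 6 h call of COR28 sat at the fold threshold. At 24 h the pair was called lower while CCA1 and LHY were not called. Whether CCA1 or LHY had a part in the course of the pair was not tested.

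Other clock genes took their own courses. RVE3, a relative of CCA1, was at -2.86 at 2 h (adjusted p 3.56e-05) and -4.68 at 12 h, and RVE7, another, was 1.60 higher at 2 h (adjusted p 0.00018). PRR9, a morning repressor, reached -7.05 at 12 h (SE 0.34, adjusted p 1.01e-09). FKF1 was lower at 2 h, at -1.16 (adjusted p 0.00925), and higher at 6 h, at 2.47 (8.56e-06), and at 12 h, at 2.08 (3.24e-05). GI was lower at 2 h, at -1.06 (adjusted p 0.00113), and was not called at 12 h, at 0.22.

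In the light signalling list 5 of 17 genes were measured, 4 of them named from the same list of called transcripts. At 2 h, 1 was higher and 2 were lower, beside 2.88% and 1.6% of all probe sets, and at 12 h, 1 was higher and 1 lower, beside 4.41% and 4.76%. PIF4, a growth-promoting factor that phytochrome B restrains, was 2.31 higher at 2 h (adjusted p 5.14e-07) and 2.103 higher at 12 h. HYH, the homologue of HY5, was at -1.51 at 2 h and -1.95 at 12 h (adjusted p 0.000318). SPA4, a partner of COP1, was at -1.05 at 2 h (adjusted p 9.06e-05). The median difference of the list was -0.58 at 2 h and -0.08 at 12 h, against 0.06 and 0.01 for all probe sets.

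Of 20 CBF and COR genes, which belong to the main cold pathway, 9 were measured and none of these was a CBF. GOLS3 and COR413IM1, 2 of the 9, were named only from the study's list of called transcripts, so their calls are not independent evidence. At 2 h, 0 were higher and 3 lower than in CA plants, where 2.88% of all probe sets were called higher and 1.6% lower. At 12 h, 0 were higher and 8 lower, where 4.41% were called higher and 4.76% lower. The median difference was -0.63 at 2 h and -2.33 at 12 h, against 0.06 and 0.01 for all probe sets. LTI30, a dehydrin, stood at -2.83 at 2 h and -5.95 at 12 h, after a difference of 6.76 between CA and NA plants. GOLS3, a galactinol synthase, stood at -4.31 at 2 h and -5.90 at 12 h, KIN1 at -3.18 at 12 h and COR15B, a protein that protects chloroplast membranes, at -2.71. COR47, a dehydrin, was at -1.66 at 2 h and -1.56 at 12 h. ZAT10 was called lower in CA than in NA plants, at -2.03, where the other 8 measured genes of the list were called higher. Against CA plants it was not called at 2 h or 12 h, at -0.63 and -0.66. At 12 h COR27 was 0.49 and COR28 1.29 above CA plants.

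**Figure D5:**
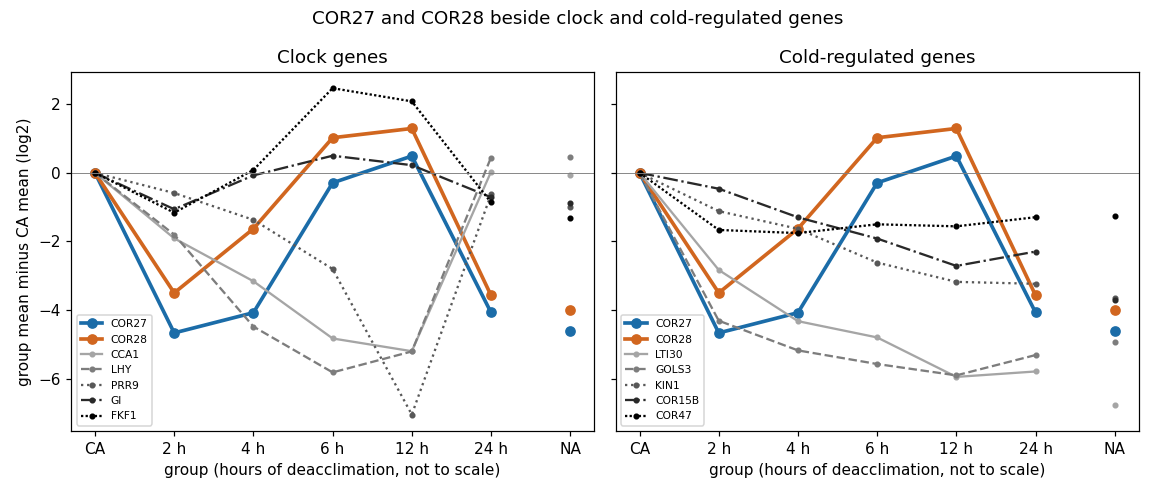
Group mean minus CA mean (log2) for COR27 and COR28 beside 5 clock genes (left) and 5 cold-regulated genes (right), by group, with NA plants as separate points and hours not to scale. At 12 h the pair stands at 0.49 and 1.29 where CCA1 stands at -5.20 and LTI30 at -5.95.

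The genes next to the pair on the chromosome were looked up by locus. AT5G42895 and AT5G42905 flank COR27, and AT4G33970 and the long non-coding RNA AT4G08865 flank COR28, in the gene order of the RefSeq table. No probe set was named for AT4G08865. None of the other 3 was called in the 6 comparisons that involve CA plants. The group means of AT5G42895, AT5G42905 and AT4G33970 spanned 0.55, 0.28 and 0.93 log2 units. AT4G33970 was at -0.93 in CA against NA plants, opposite in direction to COR28 and just short of the threshold.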

How the data were processed

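Rosette RNA of 21 samples was measured on Affymetrix whole-transcript arrays. The deposited values are log2 expression levels per probe set, which the authors made by RMA in RobiNA (version not given in the sources used here), and were used without further scaling. Of 38408 probe sets, 7079 at the head of the table, none with a gene name, were set apart, leaving 31329. Names came from the platform table, brought up to date through a RefSeq gene table (TAIR10.1), and for 683 probe sets from the study's supplementary list of called transcripts. Columns of the authors' own comparisons were not used.

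All 21 arrays entered a single fit in limma 3.58.1 (R 4.3.3; 14 residual and 2.69 prior degrees of freedom), with group as the only term. A call required a Benjamini-Hochberg adjusted p under 0.05 over all 31329 probe sets of a comparison and a log2 change over 1. The fit was run on simulated data with known changes added to a single group, which checks the calculation and not the results for the pair. The number of arrays, 3 per group, limits the precision. The members and the lists were chosen with earlier results of these data known.

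Named genes were the pair and, for each, the 8 most alike among named single-gene probe sets called in a comparison with CA plants. Likeness was the Pearson correlation over the 7 group means. Direct regulators, partners and targets of the pair that could be named were added. So were up to 4 further members of each list with the largest called changes at 2 h and at 12 h. Other genes named were chosen after their values were seen. Same-numbered replicates were checked for pairing (closing section). Alternatives were cyclic loess, a common array median, the whole table, a filter on dim probe sets, the arrays of 2 groups alone, trend and robust eBayes, a replicate block, other measures of likeness and leaving out each array. Promoter motifs were not searched, as no sequences were used here.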

Additional observations from a re-analysis of the deposited data

How the results depend on the processing

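Of 210 alternative values of the differences of the pair, 206 kept direction and call, as did 165 of 180 with an array left out. The COR28 difference between 6 h and CA plants was 0.95 with cyclic loess and 0.96 with a common median, not called, and ranged from 0.87 to 1.16 with an array left out, never called. With the arrays of the 2 groups alone, COR28 between 4 h and 2 h (1.87) and COR27 between 6 h and 4 h (3.78) were not called, a fit with fewer arrays. COR28 between 4 h and 2 h ranged from 1.34 (without 2 h replicate 3) to 2.35, with the call lost in 4 of 6 such fits. COR27 between 2 h and NA plants, not called, changed sign (range -0.30 to 0.13, with positive values of 0.01, 0.12, 0.13 and 0.01). COR28 between 2 h and NA plants ranged from 0.020 (without 2 h replicate 1) to 1.04, called, without 2 h replicate 3. The excess of the COR28 change over that of COR27 at 2 h was 1.61 with group medians and ranged from 0.93 without 2 h replicate 1 to 1.64 without 2 h replicate 3. The cause of these shifts was not tested.

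Of the 8 probe sets most like COR27, 4 were kept with Pearson correlation over 21 arrays and 3 with Spearman. For COR28 the numbers were 5 and 3. Counts over all probe sets moved by more than 1.5 times with the whole table at 12 h (4315, against 2872), and with the arrays of 2 groups alone for 24 h against NA plants (0, against 14), 4 h against 2 h (3, against 51), 6 h against 4 h (2, against 15) and 12 h against 6 h (0, against 162). Leaving out an array gave 2 to 156, 21 to 321, 8 to 15 and 56 to 347 in these last 4.

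Same-numbered replicates did not pair throughout: over 45 pairs their deviations correlated at -0.08 to 0.35, with 29 over 0.1, and every pair was over 0.1 in 3 of 15 comparisons. With a replicate block the COR27 difference between 2 h and CA plants stayed at -4.67, and no call of the pair changed. The SE of the COR27 differences was 0.16 with the block, against 0.31 in the main fit. The COR27 differences from CA plants were -0.29 at 6 h and 0.49 at 12 h with either. With 3 arrays per group, differences near the threshold are not resolved.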
